A study of Mus musculus with 7 samples.

Results

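The smooth muscle contractile genes are 32 genes for the myosin and actin filaments of smooth muscle, the proteins that anchor these filaments, membrane proteins that set calcium and tension, and the coactivator myocardin. They were taken as a fixed list of symbols and matched to array probes through RefSeq accessions. Of the 32 genes, 29 matched a probe and 27 had enough signal to be tested, among 16939 items (named genes and transcripts without a symbol) tested in all. Synpo2, Myl9 and Filip1l matched no probe by accession and are not analysed here. The study measured prostate RNA of C57Bl/6 mice on 7 two-colour Agilent arrays, each with 1 prostate sample labelled red and universal mouse reference RNA labelled green. There were 3 PB-NICD samples, from ARR2PB-Cre mice that carry the ROSA(N1IC) allele, and 4 control samples, from mice that carry ROSA(N1IC) and that the labels call wild-type for the Notch1 intracellular domain (NICD). In PB-NICD mice the Cre recombinase, driven by a probasin-derived promoter that is active in prostate epithelium, turns on NICD, the active form of the Notch1 receptor. The labels say that these mice develop prostatic intraepithelial neoplasia. The sources used here give neither age nor number of animals per sample, so a p-value measures only the spread between these samples.

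Smooth muscle surrounds the epithelial glands of the prostate and contracts to expel their secretion. It shortens when calcium and calmodulin turn on myosin light chain kinase, which lets smooth muscle myosin pull on actin filaments that tropomyosin, calponin and caldesmon decorate. The filaments are tied to dense bodies and to the membrane by desmin, filamin, vinculin and related linkers. Serum response factor and its coactivator myocardin drive many of these genes through a DNA element called the CArG box. In bulk RNA, fewer smooth muscle cells and less of these RNAs per cell cannot be told apart.

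Levels are given as the log2 of red over green, and a change as PB-NICD minus control, both means over arrays. Between 44.8% and 66.8% of probes on the 7 arrays stood well above background in red, and the median sample signal was 88 or more on PB-NICD arrays and 87.5 or less on control arrays. Notch1 read 2.46, 2.58 and 2.71 on PB-NICD arrays 1 to 3, against 0.05, 0.30, 0.84 and 0.66 on the 4 control arrays. The spot on PB-NICD 1 was marked as an outlier and stayed out of the test, which gave a change of 2.19 ± 0.21 (SE, n = 2 and 4, limma adjusted p = 0.000219). The luminal epithelial genes of the prostate stood, on average, above the reference on every array. PB-NICD 1, control 1 and control 2 lay on slide 1 and the other 4 arrays on slide 2. Over the 10379 items with a value on every array, the arrays correlated across genes at r = 0.946 to 0.954 within PB-NICD and 0.922 to 0.960 within control. Between the groups r was 0.816 to 0.904.

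On the loess scale, 4 of the 27 contractile genes tested passed a threshold of adjusted p under 0.05, all of them lower in PB-NICD: the kinase Dmpk, the tropomyosin Tpm2, the enteric smooth muscle actin Actg2 and the calponin Cnn1. No member passed in the higher direction. Over all 16939 items, 4.6% passed as lower and 3.49% as higher. The change was below 0 for 22 of the 27 members, against 54.1% of all items, and the median change was -0.32 for the members and -0.02 for all items. The direction depends on the scaling of the arrays. With median centring in place of loess the median of all items was 0.27 and that of the members 0.25. None of the 27 then passed as lower, while Smtn and Tpm1 passed as higher. Over all 16939 items, 4592 passed with that scaling, 6.08% of them as lower.

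At an unadjusted p under 0.05, 12 of the 27 members were lower and 1 was higher, beside 12% and 8.94% of all items. Every PB-NICD value lay below every control value for 9 members and above for 1, beside 14.1% and 10.5% of all items. These counts were again those of the loess scale. The largest change among the tested members was -0.80 and the smallest ratio of PB-NICD over control was 0.575, both for Tpm2.

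**Figure D1:**
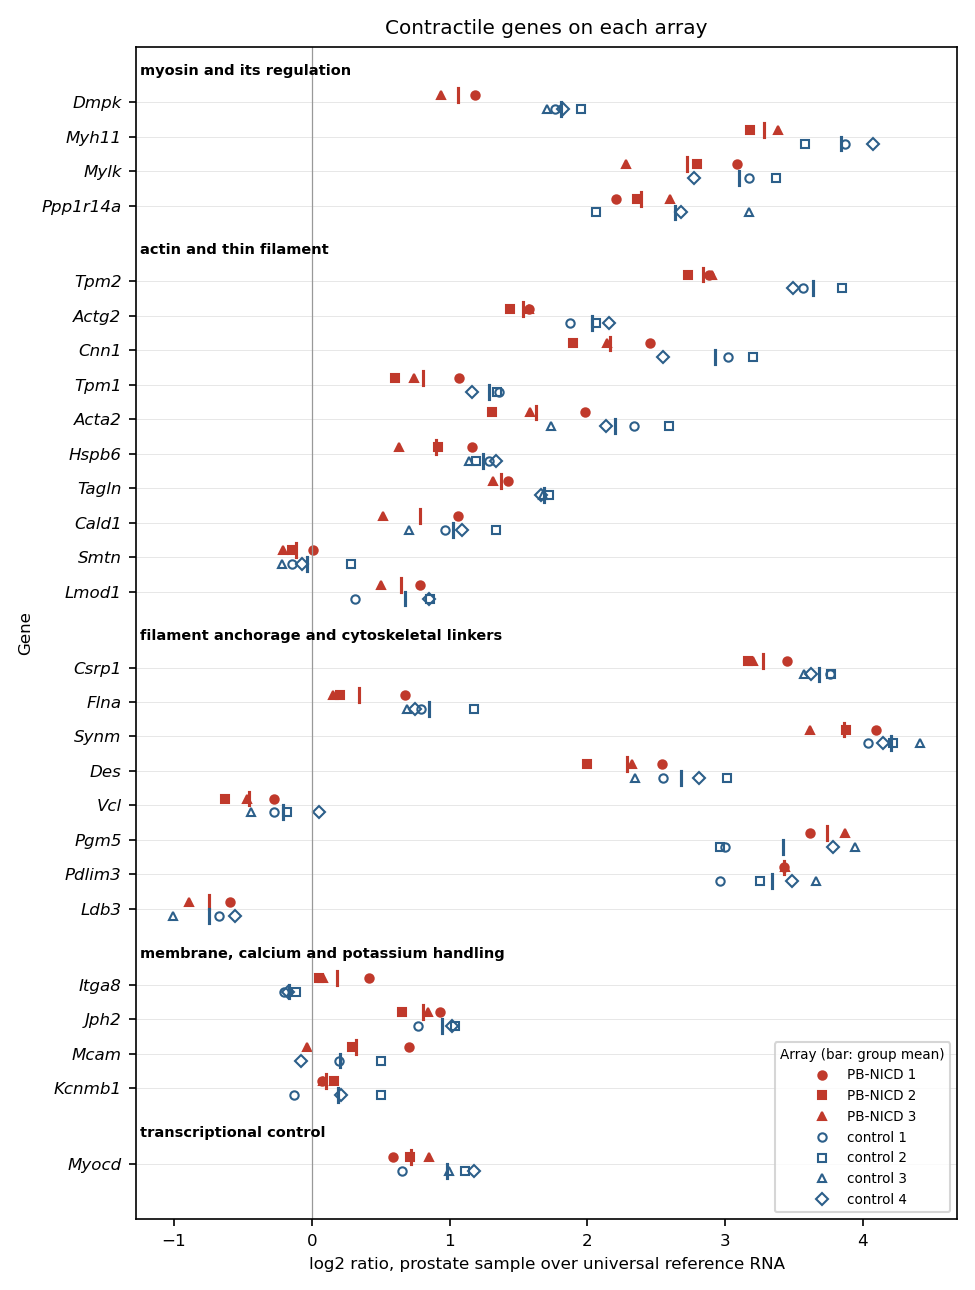
Log2 ratio of sample over reference (horizontal axis, loess scale) of the 27 tested contractile genes (rows, grouped by role) on each array, with PB-NICD arrays as filled red points above the control arrays as open blue points, and bars at the group means. The PB-NICD mean lies left of the control mean for 22 genes on this scale, an order that median centring turns round for 18 of the 27 genes.

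Of the myosin genes, 4 were tested and 1 passed. Dmpk, the myotonic dystrophy protein kinase, which acts on regulators of myosin phosphatase, had log2 ratios of 1.19 and 0.94 in PB-NICD replicates 1 and 3, against 1.76, 1.95, 1.71 and 1.82 on control 1 to control 4. Both PB-NICD values lay below the whole control range, and the outlier spot on PB-NICD 2 was left out. The fitted change was -0.75 ± 0.14 (SE, n = 2 and 4, limma adjusted p = 0.0083), a level 0.595 times that of control. A second, dimmer Dmpk probe read 1.61, 1.33 and 1.38 in PB-NICD and 1.63, 2.21, 1.52 and 1.72 in control, a change of -0.33. Of these PB-NICD values only that of PB-NICD 1 lay inside the control range. Leaving out PB-NICD 1 or PB-NICD 3 left the bright probe with 1 PB-NICD value, so that the dimmer probe was used, and the call was lost (changes -0.42 and -0.30, limma adjusted p = 0.246 and 0.438). With median centring the Dmpk change stayed below 0, at -0.14 (limma adjusted p = 0.641).

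The smooth muscle myosin heavy chain Myh11, which is the motor itself, had log2 ratios of 3.18 and 3.39 in PB-NICD replicates 2 and 3, against 3.87, 3.58 and 4.07 on control 1, control 2 and control 4. The groups did not overlap, but the change of -0.56 ± 0.17 (SE, n = 2 and 3) did not pass (limma adjusted p = 0.0978). The spots on PB-NICD 1 and control 3 were left out as outliers. They read 3.74 and 3.73, so that PB-NICD 1 lay inside the control range, and with outlier spots kept the change was -0.38 (limma adjusted p = 0.201). Mylk, the light chain kinase, had a change of -0.38, and its 2 probes were both below 0. Ppp1r14a, an inhibitor of myosin phosphatase, had a change of -0.25, and its PB-NICD values lay inside the control range. Ppp1r12b, a targeting subunit of that phosphatase, was not tested because a single control array had a usable spot. It read -0.20, -0.37 and -0.18 in PB-NICD and -0.82 on control 2. With median centring the changes of Myh11 and Mylk were above 0, at 0.32 and 0.50.

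The actin and thin filament genes held 3 of the 4 calls. All 10 tested were below 0 on the loess scale, with a median of -0.41, and 7 had an unadjusted p under 0.05. With median centring all 10 were above 0.

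Tpm2, the beta chain of tropomyosin, which lies along the actin filament, read 2.89, 2.73 and 2.90 on the 3 PB-NICD arrays, against 3.57, 3.85 and 3.49 on control 1, control 2 and control 4. The PB-NICD values were close together and all below the control range. The change was -0.80 ± 0.13 (SE, n = 3 and 3, limma adjusted p = 0.00555). Without each array in turn it stayed between -0.87 and -0.69 and passed every time. A second Tpm2 probe gave 2.73, 2.65 and 2.86 in PB-NICD and 2.79, 3.31, 3.29 and 3.32 in control, a change of -0.44. With median centring the Tpm2 change was 0.12 (limma adjusted p = 0.596), against 0.27 for the median of all items.

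Actg2, the actin of visceral smooth muscle, read 1.58, 1.44 and 1.57 on the 3 PB-NICD arrays, against 1.87, 2.06 and 2.16 on control 1, control 2 and control 4. The groups did not overlap, and the change was -0.50 ± 0.13 (SE, n = 3 and 3, limma adjusted p = 0.0388). The call was lost without any single PB-NICD array, without control 2 or without control 4, with changes of -0.52 to -0.44 and limma adjusted p of 0.0776 to 0.138. Cnn1, the basic calponin that binds actin and slows the myosin motor, read 2.45, 1.89 and 2.14 in PB-NICD, against 3.02, 3.21 and 2.55 in control. PB-NICD 1 and control 4 nearly touched, and the change was -0.76 ± 0.20 (SE, n = 3 and 3, limma adjusted p = 0.0434). The Cnn1 call was lost without PB-NICD 2, PB-NICD 3, control 1 or control 2, with changes of -0.75 to -0.63 and limma adjusted p of 0.112 to 0.157. With median centring Actg2 and Cnn1 stood at 0.43 and 0.18, and neither passed.

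The best known smooth muscle marker, Acta2, the alpha actin of vascular and stromal smooth muscle, did not pass. It read 1.99, 1.31 and 1.59 in PB-NICD, against 2.34, 2.59, 1.74 and 2.14 in control. PB-NICD 1 lay inside the control range, and the change was -0.58 ± 0.21 (SE, n = 3 and 4, limma adjusted p = 0.136). Its 3 probes gave changes of -0.58, -0.35 and -0.09, in order of brightness. Tpm1, the alpha tropomyosin, had a change of -0.48 ± 0.15 with groups that did not overlap (limma adjusted p = 0.0838).

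Hspb6, a small heat shock protein of relaxing muscle, had a change of -0.34 and an unadjusted p of 0.0319. Tagln, the actin-binding transgelin, read 1.43 and 1.31 in PB-NICD replicates 1 and 3, against 1.73, 1.68 and 1.66 on control 2 to control 4, a change of -0.32. Its second probe had a change of -0.62 (unadjusted p = 0.00469). Cald1, the actin-binding caldesmon, also had a bright probe with the smaller change, -0.24. The dimmer one read 0.05, -0.18 and -0.05 in PB-NICD against 0.49, 0.79, 0.49 and 0.53 in control, a change of -0.64 (unadjusted p = 0.000313). Smtn (smoothelin) and Lmod1 (leiomodin, which starts actin filaments) had changes of -0.08 and -0.03, and their groups overlapped.

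Of the anchorage and linker genes, 8 were tested, none passed, 5 were below 0, and the median change was -0.29. Csrp1, an actin-linked LIM protein of smooth muscle, came nearest. It read 3.45, 3.17 and 3.20 in PB-NICD, against 3.76, 3.77, 3.57 and 3.62 in control. The groups did not overlap, and the change was -0.41 ± 0.12 (SE, n = 3 and 4, limma adjusted p = 0.0599). Flna, the actin crosslinker filamin A, had a change of -0.51 with limma adjusted p of 0.093, and its 3 probes were all below 0 (-0.51, -0.13 and -0.56). Des (desmin) and Synm (synemin), which form the intermediate filaments of muscle, had changes of -0.39 and -0.34. Vcl (vinculin), which links actin to adhesions, had a change of -0.25.

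The 3 anchorage genes that were not below 0 were Pgm5, Pdlim3 and Ldb3. Pgm5 (aciculin, found at muscle adhesions) read 3.61 and 3.87 in PB-NICD replicates 1 and 3, against 3.00, 2.96, 3.95 and 3.78 on control 1 to control 4. Both control arrays of slide 1 were low and both of slide 2 were high, so the change of 0.32 was 0.63 within slide 1 and 0.0055 within slide 2. Its 3 probes gave 0.32, -0.22 and 0.33. Pdlim3 and Ldb3, both PDZ-LIM proteins of muscle, had changes of 0.09 and 0.00. Under median centring Csrp1, Flna, Des, Vcl and Synm stood at 0.16, 0.25, 0.25, 0.40 and 0.04, none of them passing.

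The membrane genes lay on both sides of 0: 4 were tested, 2 were below 0, none passed and the median change was 0.01. Itga8, the integrin alpha 8 chain, was the one member above control on every array with a value, on the probe used. That probe was well above background on 3 PB-NICD arrays and 2 control arrays, so it was tested only through the group where it was high. It read 0.42, 0.05 and 0.08 in PB-NICD, against -0.20, -0.11 and -0.17 in control, a change of 0.35 ± 0.13 (SE, n = 3 and 3, limma adjusted p = 0.172). A brighter Itga8 probe had a value on PB-NICD 2 alone of its group and was not tested. It read 1.195 there, inside its control range (1.305, 0.82, 0.86 and 0.54 on control 1 to control 4). With outlier spots kept, that brighter probe met the filter and took the place of the other, and the Itga8 change was 0.11 (limma adjusted p = 0.791). Mcam (the adhesion molecule CD146), Jph2 (junctophilin, which couples membrane and calcium store) and Kcnmb1 (the beta subunit of the large calcium-activated potassium channel) had changes of 0.11, -0.13 and -0.09. Pln, the phospholamban that restrains the calcium pump, was well above background on 1 array and was not tested.

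Myocd (myocardin), the coactivator of serum response factor, read 0.59, 0.71 and 0.85 in PB-NICD, against 0.66, 1.11, 0.99 and 1.17 in control. Control 1 lay among the PB-NICD values, and the change was -0.27 ± 0.14 (SE, n = 3 and 4, limma adjusted p = 0.329). With median centring it was -0.25. Of the other members, Dmpk, Ppp1r14a and Kcnmb1 also stayed below 0 with median centring, and Pdlim3 turned to -0.04.

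Promoter windows show what the printed start regions of these genes hold. RefSeq (GRCm38.p6) gave 35 windows of 300 bases, ending just past the annotated start, for 28 of the 32 members. Myh11, Actg2, Tagln and Myocd had no window and were not searched. The CArG box was searched by its strict consensus, which reads the same on both strands, and the core motif of the Notch partner CSL, GTGGGAA, on both strands. A CArG box lay in 5 of the 35 member windows (14.3%), those of Myl9, Ldb3, Vcl and Filip1l, and in 1.63% of 32851 windows of all genes. The windows of Ldb3 overlap and share the same box. The CSL core lay in 1 of the 35 member windows (2.86%), that of Csrp1, and in 6.38% of all. Of the genes that passed the test, Actg2 had no window. The windows of Dmpk, Tpm2 and Cnn1, which also passed, are shown and hold neither motif. That of Vcl shows the CArG box at -227 from the start and that of Csrp1 the CSL core at -216 on the opposite strand, each in capitals. All are given 5′ to 3′ on the strand of the gene. They lie at chr7:19083608-19083907 (Dmpk, + strand), chr4:43523505-43523804 (Tpm2, - strand), chr9:22099003-22099302 (Cnn1, + strand), chr14:20929148-20929447 (Vcl, + strand) and chr1:135728917-135729216 (Csrp1, + strand).
Dmpk: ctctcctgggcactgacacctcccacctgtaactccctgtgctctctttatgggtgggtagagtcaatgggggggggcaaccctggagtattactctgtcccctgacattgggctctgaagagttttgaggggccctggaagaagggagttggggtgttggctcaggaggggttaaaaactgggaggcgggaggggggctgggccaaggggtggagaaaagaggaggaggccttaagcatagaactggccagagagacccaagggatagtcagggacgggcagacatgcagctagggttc
Tpm2: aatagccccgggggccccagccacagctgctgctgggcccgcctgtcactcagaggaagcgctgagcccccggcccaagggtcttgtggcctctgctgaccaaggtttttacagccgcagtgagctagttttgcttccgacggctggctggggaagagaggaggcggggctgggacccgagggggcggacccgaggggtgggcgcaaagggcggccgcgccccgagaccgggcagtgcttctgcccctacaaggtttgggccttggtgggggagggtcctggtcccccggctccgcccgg
Cnn1: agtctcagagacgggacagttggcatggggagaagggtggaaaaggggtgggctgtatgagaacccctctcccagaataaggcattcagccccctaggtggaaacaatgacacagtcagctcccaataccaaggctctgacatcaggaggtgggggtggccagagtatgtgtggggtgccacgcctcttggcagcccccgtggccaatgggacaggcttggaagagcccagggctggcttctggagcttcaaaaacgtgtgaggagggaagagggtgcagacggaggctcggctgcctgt
Vcl: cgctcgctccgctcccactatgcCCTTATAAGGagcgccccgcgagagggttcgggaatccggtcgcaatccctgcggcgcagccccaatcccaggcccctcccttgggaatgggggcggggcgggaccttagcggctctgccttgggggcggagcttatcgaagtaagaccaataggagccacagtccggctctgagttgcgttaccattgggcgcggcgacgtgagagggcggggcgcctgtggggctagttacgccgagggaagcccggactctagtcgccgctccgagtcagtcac
Csrp1: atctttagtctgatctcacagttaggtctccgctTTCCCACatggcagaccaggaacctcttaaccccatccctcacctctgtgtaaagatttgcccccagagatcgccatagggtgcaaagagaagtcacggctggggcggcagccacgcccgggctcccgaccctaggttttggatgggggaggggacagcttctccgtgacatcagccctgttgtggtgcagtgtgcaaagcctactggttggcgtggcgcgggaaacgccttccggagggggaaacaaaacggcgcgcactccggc

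The scaling of the arrays set the sign of most members. Of the 27, 18 were lower with loess and higher with median centring. Median centring also moved the median of all items to 0.27, and of its 4592 calls 6.08% were lower, against 56.9% of 1370 calls with loess. Read against that median, 15 of the members lay below it and 12 above, and the median of the members was -0.02 from it. The calls by median centring were Tpm1 (0.51, 0.23 above the median of all items) and Smtn (0.46, 0.19 above it). Read the same way, Dmpk lay at -0.42, Tpm2 at -0.15, Cnn1 at -0.10, Acta2 at -0.01 and Actg2 at 0.16. In the authors' deposited table, 9 members passed as lower and Itga8 as higher, with a median change of -0.31. Of all items, 11.5% passed as lower there, against 4.6% with loess. The table was fitted here like the other values.

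**Figure D2:**
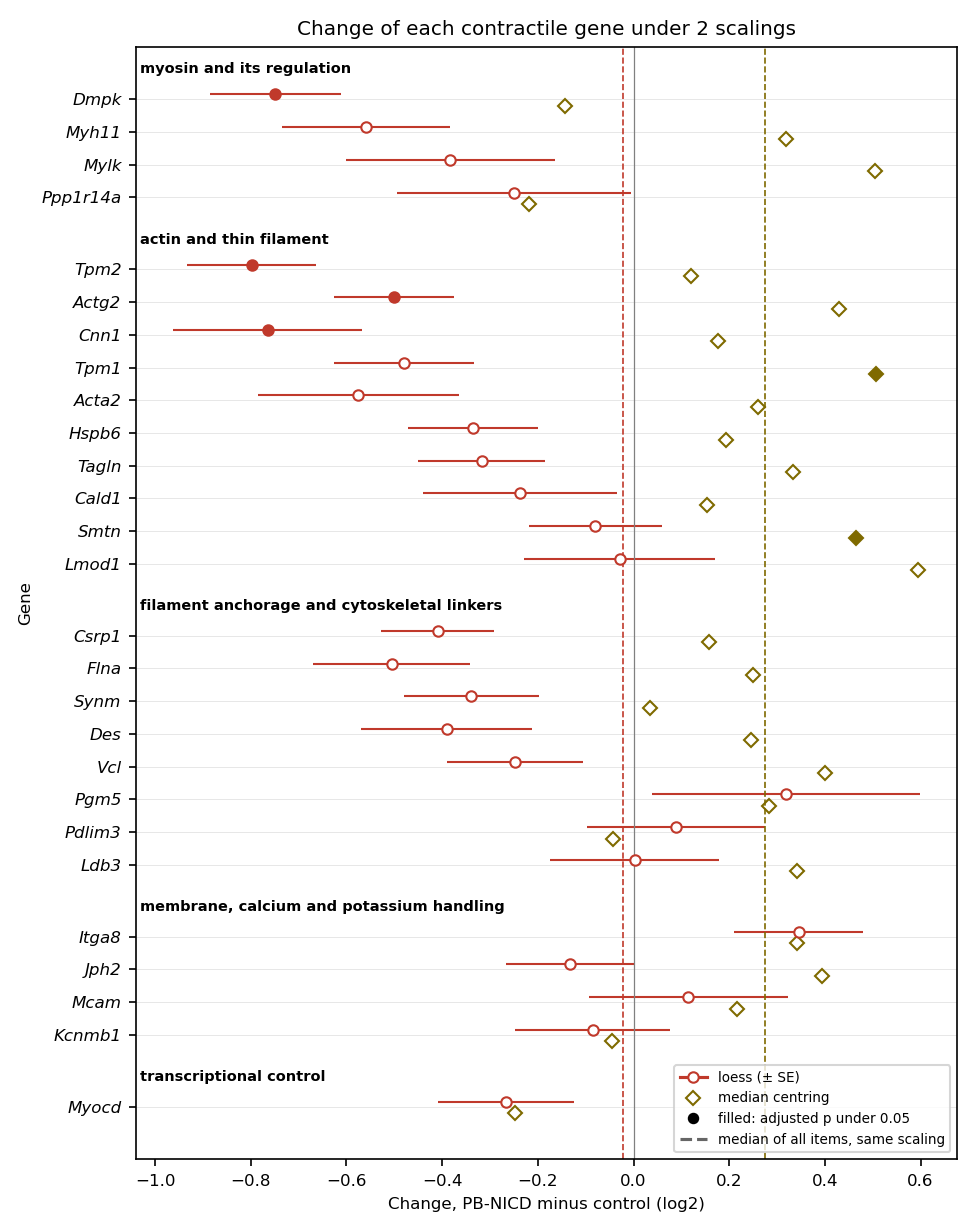
Change of each contractile gene (rows, grouped by role) as PB-NICD minus control in log2 units (horizontal axis), with loess as red circles with SE bars and with median centring as diamonds. Filled symbols have an adjusted p under 0.05, and dashed lines mark the median of all items at -0.02 (loess) and 0.27 (median centring). The symbols lie on opposite sides of 0 for most actin, myosin and linker genes.

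Within each slide most members also lay below 0 on the loess scale, read on the same probes as above and without a test. Within slide 1, with 1 PB-NICD array and 2 control arrays, 18 of 26 members lay below 0, with a median difference of -0.10. The 8 above 0 were Pgm5, Itga8, Mcam, Pdlim3, Lmod1, Ppp1r14a, Ldb3 and Jph2. Of the 10177 items that met the filter within slide 1, 57.2% lay below 0, with a median of -0.05. Within slide 2, with 2 arrays of each group, 24 of 27 members lay below 0, with a median of -0.39. Itga8 (0.24), Mcam (0.21) and Pgm5 (0.0055) lay above. Of the 12252 items that met the filter within slide 2, 53.7% lay below 0, with a median of -0.03. Dmpk differed by -0.67 within slide 1 and -0.83 within slide 2, Tpm2 by -0.82 and -0.68, Actg2 by -0.39 and -0.65, and Cnn1 by -0.66 and -0.53. On slide 2 the last 3 of these rest on control 4, since their spots on control 3 were outliers.

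Refitted within slide 2, 16 members had a probe that met the filter, 6 of them by a dimmer probe than above (Cald1, Dmpk, Mylk, Pgm5, Tpm1 and Tpm2), and none passed. Of all items, 2.73% passed as lower in that fit. Within slide 1 the single PB-NICD array has no spread of its own, so no call is read from it. With slide as a fixed block over all arrays 8 members passed as lower: the 4 named and Acta2, Csrp1, Flna and Myh11. In that fit 6.47% of all items passed as lower. The fixed-block change of Acta2 was -0.49 ± 0.14 (limma adjusted p = 0.0394). That of Myh11 sets PB-NICD 2 and PB-NICD 3 against control 4 alone, because its spot on PB-NICD 1 was left out.

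**Figure D3:**
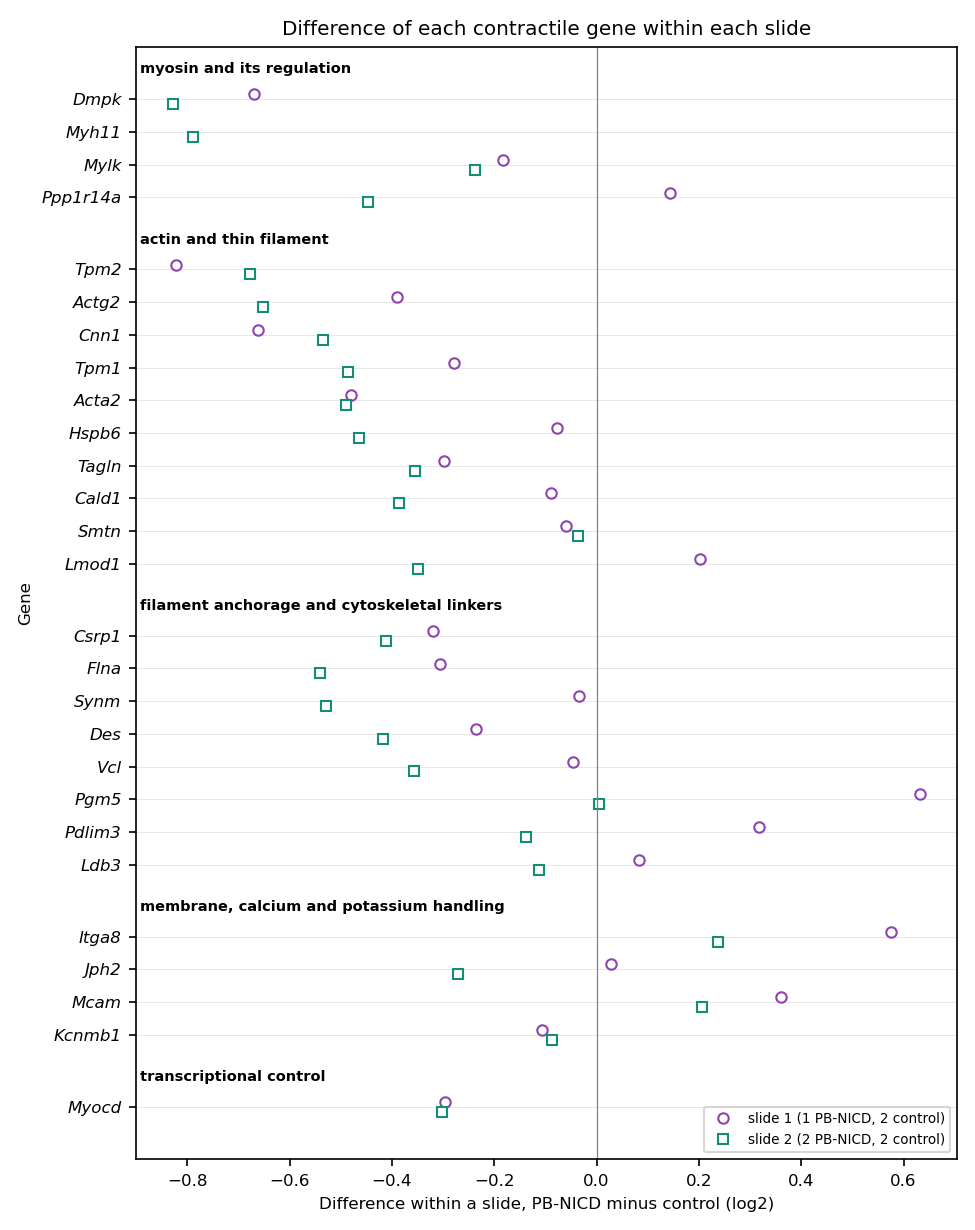
Difference within a slide (horizontal axis, log2, mean of PB-NICD minus mean of control arrays with a value, loess scale) of each contractile gene (rows), on the probe used in the report, with slide 1 as circles and slide 2 as squares and no error shown. Within slide 2, 24 of 27 squares lie left of 0, and within slide 1, 18 of 26 circles. Of all items that met the filter within a slide, 53.7% lay below 0 on slide 2 and 57.2% on slide 1. Median centring turns most of the lower members to higher over all arrays.

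The 3 PB-NICD arrays differed in how far the members lay from the control mean. The median difference over the members was -0.11, -0.37 and -0.37 for PB-NICD replicates 1, 2 and 3, and -0.11 to 0.11 on the control arrays. PB-NICD 1 therefore lay at the edge of the control range and the other two beyond it. Values were missing on some arrays because outlier spots were left out, 11 of the 27 on control 3 and 7 on PB-NICD 2. Without PB-NICD 1 the median change of the members was -0.47. In that fit 5 passed as lower (Cald1, Cnn1, Flna, Tpm1 and Tpm2), beside 3.14% of all items. There 25 members were tested, and Cald1, Dmpk, Tagln, Pgm5 and Ldb3 were read by a dimmer probe. Cald1 changed by -0.69 on that probe, against -0.24 on the one used above. The parts of array and probe in this shift were not separated. Without PB-NICD 2 the median change of the members was -0.26 and 2 passed as lower, beside 2.72% of all items.

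A second list held 46 other smooth muscle genes, such as signalling, calcium and adhesion genes that are less specific to the contractile apparatus. Of these 39 were tested, with a median change of -0.02, and 1 passed as lower and 2 as higher. With median centring the median was 0.35, against 0.27 for all items, and 0 passed as lower and 10 as higher. Of all 16939 items, 4592 passed with that scaling, 6.08% of them as lower. Gucy1a1, a subunit of the soluble guanylate cyclase that answers nitric oxide, read 2.33, 2.90 and 2.43 in PB-NICD, against 0.93, 0.96, 1.63 and 1.07 in control. The groups were far apart, with a change of 1.41 ± 0.19 (SE, n = 3 and 4, limma adjusted p = 0.00134). It kept its direction with median centring (0.71, limma adjusted p = 0.0156) and passed without each array in turn, but not with the scanner's processed signals (1.06, limma adjusted p = 0.233) or with all spots in normexp, the background correction (0.79, limma adjusted p = 0.567). Its partner subunit Gucy1b1 had a change of 0.58 (limma adjusted p = 0.0556). Gucy1a1 was well above background on every array. Gucy1b1 was well above background on 3 PB-NICD arrays and 1 control array, so Gucy1b1 was tested only through the group where it was high.

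Fhl2, a LIM coactivator, had a change of 0.80 ± 0.20 (SE, n = 3 and 3, limma adjusted p = 0.0377). Fhl2 was well above background on 3 PB-NICD arrays and 2 control arrays, so it was tested only through the group where it was high. It lost its call without PB-NICD 1, PB-NICD 3, control 1, control 2 or control 4 (changes 0.65 to 0.85), and with median centring (0.55, limma adjusted p = 0.0773). Serum response factor, Srf, through which myocardin acts, had a change of -0.02, and its coactivators Mrtfa and Mrtfb had changes of 0.01 and 0.02. No difference in change between the contractile genes and these genes was tested.

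Markers of other cell types were read on the same arrays, and their part in the changes of the contractile genes was not tested. Of 16 skeletal muscle genes none passed, 14 were below 0, and the median was -0.41. The array means ran from 0.20 to 0.67 in PB-NICD and from 0.50 to 1.53 in control, highest on control 1. With median centring 3 passed as lower and 1 as higher, and the median was -0.14. Of its defining genes, Acta1 had a change of -0.49 (limma adjusted p = 0.221) and Ckm one of -0.66 (limma adjusted p = 0.134), and with median centring these were 0.22 and -0.71, of which Ckm passed (limma adjusted p = 0.0154). Without control 1, 3 contractile genes passed as lower, beside 3.7% of all items, and the median of the contractile genes was -0.32.

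Of 9 basal epithelial genes 8 were below 0, 4 passed as lower, and the median was -0.47. They were Krt5, Krt15, Lgals7 and Itga6, and with median centring all but Itga6 (0.02) still passed as lower. Lgals7 was well above background on 1 PB-NICD array and 4 control arrays, so it was tested only through the group where it was high. Itga6 also lost its call without PB-NICD 2 or PB-NICD 3 (-0.52 and -0.47). Itgb4 went the other way, with a change of 0.31 (limma adjusted p = 0.492), and passed as higher with median centring. The median of the list was then -0.16. Array means were 0.23 to 0.29 in PB-NICD and 0.65 to 1.06 in control. Krt5 had a change of -1.72 ± 0.17 (SE, n = 3 and 4, limma adjusted p = 0.000186) and Krt14 one of -0.45 (limma adjusted p = 0.156). Of 10 luminal genes 1 passed, Tmprss2 as lower (-1.32, limma adjusted p = 0.00603), and the median was 0.11, with array means of 2.64 to 3.09 in PB-NICD and 2.51 to 3.14 in control. Tmprss2 lost its call without control 2 or control 4 (-0.86 and -0.36), and the mean of its probes gave -0.17 (limma adjusted p = 0.886). The probe used had 2 control values. Krt8 and Krt18 had changes of 0.21 and -0.49, and neither passed on the loess scale. With median centring Krt8 passed as higher and Krt18 stood at 0.39.

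The 11 pericyte and endothelial genes had a median change of 0.00 and array means of -0.01 to 0.08 in PB-NICD and -0.05 to 0.01 in control. Pecam1 had a change of -0.04, and Cdh5 was not tested. Notch3, a Notch receptor of mural cells, passed as higher (limma adjusted p = 0.00224, and 0.0959 with median centring) and Emcn, an endothelial sialomucin, as lower (-0.80, limma adjusted p = 0.0365). Notch3 was well above background on 3 PB-NICD arrays and 0 control arrays, so it was tested only through the group where it was high, and no size is given. Emcn lost its call without any one PB-NICD array, without control 3 or without control 4 (changes -0.91 to -0.63). The 10 fibroblast genes had a median of -0.12 with none passing, and array means of 0.71 to 1.25 in PB-NICD and 0.81 to 1.00 in control. Col1a1 and Col1a2 had changes of -0.25 and -0.11. The 7 immune genes had a median of -0.03 with none passing, and means of 0.15 to 0.63 in PB-NICD and 0.05 to 0.70 in control. Ptprc and Cd52 had changes of -0.04 and -0.36. With median centring the medians of the luminal, vascular, fibroblast and immune lists were 0.52, 0.34, 0.21 and 0.37, against 0.27 for all items.

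The seminal vesicle gene Svs4 varied between arrays of one group. It read 5.72, 0.71 and 0.66 on the PB-NICD arrays, against 2.35, 9.36, -0.02 and -0.28 on the control arrays, high on control 2 and PB-NICD 1. The defining markers of that list, Svs1 and Svs2, were not tested. Without control 2 the median change of the contractile genes was -0.28 and 2 passed as lower, beside 3.59% of all items. The non-member genes Gucy1b1, Srf, Mrtfa, Mrtfb, Svs4, Notch3, Emcn, Tmprss2, Krt15, Lgals7, Itga6 and Itgb4 were chosen for mention after their values were seen.

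**Figure D4:**
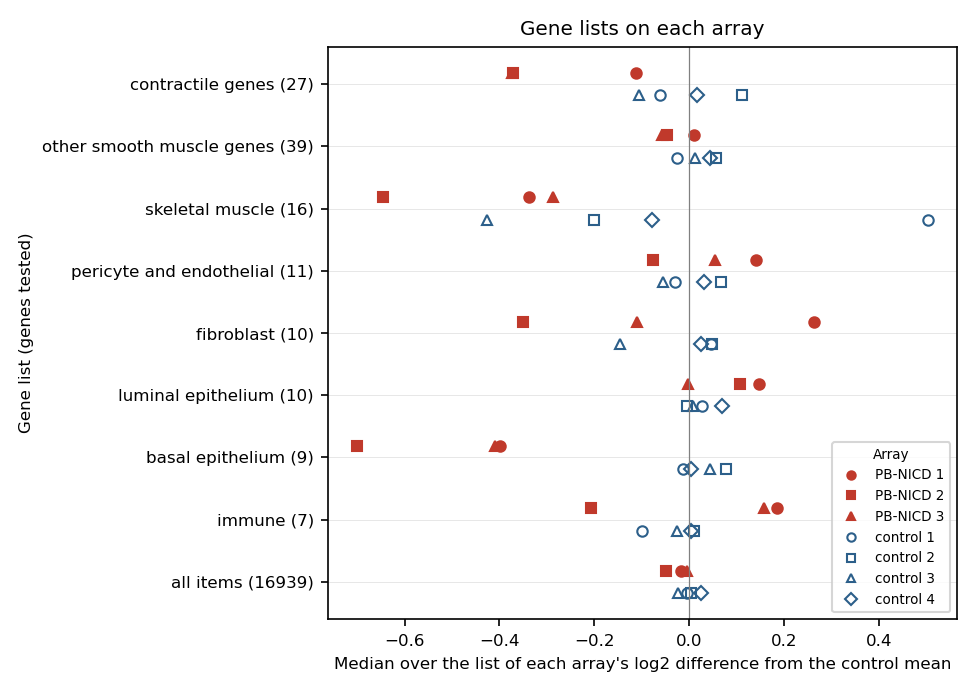
For each gene list (rows, with the number of genes tested) and array, the median over the list of the log2 difference from the control mean (horizontal axis, loess scale), with PB-NICD arrays as filled red points above control arrays as open blue points. The contractile genes lie at -0.37 on both PB-NICD arrays of slide 2 and at -0.11 on that of slide 1, where control 3 also lies; the basal list lies further to the left on each PB-NICD array, and median centring moves the members' median change to 0.25 and that of all items to 0.27.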

How the data were processed

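Agilent Feature Extraction 10.7.3.1 gave the spot intensity of both channels, per the file headers. The deposited intensity columns used were median spot and median background signals, not normalized, and the software's processed signals, background-subtracted and dye-normalized. The deposited log10 ratio gave the direction, red (sample) over green (reference). The authors also deposited a log2 value table, centred near 0 with column medians of -0.0166 to -0.00949; how it was normalized the sources used here do not say. Each column correlated with its own array at r = 0.989 to 0.995. Deposited flags mark spots well above background, saturated (none) or outliers.

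Here, background was corrected with normexp (offset 50), followed by loess within arrays, in limma 3.58.1 under R 4.3.3. Control spots and outlier spots had weight 0 in loess, and outlier spots were then left out. Of the spots, 6 on PB-NICD 1 and 2 on control 3 lay over 30 units below their own local background, with the lowest red signal minus background at -47741, and were left out before normexp. With them, the fitted background mean of the red channel on PB-NICD 1 was -220, against -22.4 to -8.14 elsewhere, and its log2 ratios were compressed (median absolute deviation 0.0586, and 0.379 without them). This step and the outlier weight were chosen after fits without them had been seen. With those 8 spots kept the fit calls 461 items and 2 members, and without them 1370 and 4.

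A probe was tested if its red channel was well above background on 3 or more arrays and each group had 2 or more values. A gene was represented by the brightest of its probes that met this filter. Of 41174 probes, 24375 were named through RefSeq accessions (GRCm38.p6); the files use an older build, so no probe coordinates are given. The comparison of PB-NICD with control used lmFit and eBayes, two-sided, with group as the only term, with Benjamini-Hochberg adjustment over 16939 items and a threshold of 0.05. The offset understates changes of dim genes, and 3 and 4 arrays limit the precision. Whether label numbers pair the samples could not be told. Deviations of same-numbered arrays correlated at r = 0.32, -0.27 and 0.05, but PB-NICD 2 and control 2 lie on different slides. PB-NICD 1 correlated at 0.32 and 0.37 with control 1 and control 2, on its slide, and at -0.33 and -0.36 with control 3 and control 4. These values cannot tell pairing apart from slide. The fitting code was tested on simulated data.

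The members and lists were chosen with earlier results of these data known. The genes named were set by rule: members that pass and the member of lowest p in each role, per sample; among other smooth muscle genes those that pass and the 3 of lowest p; and the first 2 genes of each marker list. Exceptions are marked in the text, and 1 gene that the rule names is not reported here. Alternatives to the background, scaling, filters, probe choice, slide and replicates were run.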

Additional observations from a re-analysis of the deposited data

How the results depend on the processing

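With the settings of the report, 1370 items and 4 members passed, with a median member change of -0.32. Leaving out each array in turn gave 729 to 1547 items, 2 to 5 members and medians of -0.47 to -0.26. Of all items, 2.72% to 5.5% passed as lower in these fits. In some of them, members were read by another probe or were not tested. Normexp with offset 16, no filter on dim probes, and eBayes with trend and robust each called 2 members as lower. Of all items, 4.1%, 2.17% and 4.17% passed as lower there, in that order. Processed signals called 1 member as lower (median -0.45), beside 3.76% of all items. The sample channel alone called 898 items, 45% of them lower against 56.9% as reported. It called 1 member as lower, beside 2.39% of all items. The authors' deposited table gave 3205 items, and 9 members as lower beside 11.5% of all items as lower. Slide as a fixed block called 8 members as lower, beside 6.47% of all items. The median was -0.18 within slide 1, and slide 2 alone gave 614 items and 0 members (limma, with 7 at an unadjusted p under 0.05). Of all items, 2.73% passed as lower within slide 2, and 10.5% were lower at an unadjusted p under 0.05. The replicate block, whose numbers are not known to pair the samples, called 906 items. It called 1 member, Tpm2, as lower, beside 2.72% of all items. Keeping the 8 spots far below background in normexp, an alternative chosen after seeing the data, gave 461 items (84.8% lower), 2 members and a median of -0.55. Of all items, 2.31% passed as lower with those spots. The cause of these shifts was not tested.

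Median centring gave 4592 items (6.08% lower), 0 members lower (limma, 0 at an unadjusted p under 0.05, 2 passing as higher) and a median of 0.25. Its reversed changes were Acta2 0.26, Actg2 0.43, Cald1 0.15, Cnn1 0.18, Csrp1 0.16, Des 0.25, Flna 0.25, Hspb6 0.19, Jph2 0.39, Lmod1 0.59, Myh11 0.32, Mylk 0.50, Pdlim3 -0.043, Smtn 0.46, Synm 0.036, Tagln 0.33, Tpm1 0.51, Tpm2 0.12 and Vcl 0.40.

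Other reversals were of members near 0 or with few values. Ldb3 stood at -0.053 with processed signals, -0.061 in the authors' deposited table, -0.12 in the sample channel alone, -0.15 with outlier spots kept, -0.057 as the mean of its probes, -0.029 and -0.00389 with slide as a fixed and random block, and -0.046 with outlier spots at full weight in loess. Pdlim3 stood at -0.22 with offset 16, -0.62 with processed signals, -0.11 with scaling between arrays and -1.09 with all spots in normexp. Pgm5 stood at -0.52 with processed signals, -0.076 as the mean of its probes, -0.26 within slide 2 (by another probe) and -0.63 with all spots in normexp. Lmod1 stood at 0.0078 with processed signals, 0.20 within slide 1 and 0.48 with the replicate block. Mcam stood at -0.16 in the sample channel alone, -0.029 within slide 1 (by another probe) and -0.094 with all spots in normexp. Jph2 stood at 0.028 within slide 1, and Tagln at 0.21 as the mean of its probes, whose spots were missing on different arrays. Leaving out each array in turn gave Ldb3 changes between -0.27 and 0.096, Mcam between -0.079 and 0.29, Pgm5 between -0.25 and 0.49, Pdlim3 between -0.036 and 0.20, Kcnmb1 between -0.25 and 0.068, Ppp1r14a between -0.54 and 0.017, Smtn between -0.14 and 0.028 and Lmod1 between -0.21 and 0.063. The lowest changes of Ldb3 and Pgm5, both without PB-NICD 1, were read by another probe.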
